A study of Homo sapiens with 6 samples.

Results

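The core noradrenergic transcription factors of neuroblastoma (NB) cells were compared between TAE684-resistant SY5Y-TR1 cells and parental SH-SY5Y cells. They are PHOX2A, HAND1, HAND2, GATA2, GATA3, TBX2, ISL1 and TFAP2B, 8 of the 19775 genes measured. They were found by name, through 17 probe sets annotated with 1 of these symbols and no other, out of 54613 tested, and each gene was read through its brightest probe set, by the mean of all 6 arrays. SH-SY5Y is an established human NB line that carries the ALKF1174L mutation, an activating change in the ALK receptor tyrosine kinase. SY5Y-TR1 is a subclone derived from it by long exposure to the ALK inhibitor TAE684, so both lines descend from ALKF1174L cells and SY5Y-TR1 represents 1 resistant clone. SY5Y-TR1 cells were kept in medium with 1 μM TAE684 and SH-SY5Y cells in medium alone, and the line and the drug in the medium therefore cannot be told apart. Total RNA of each line was hybridized to 3 Affymetrix U133 Plus 2.0 arrays, labelled as biological replicates. The separate cultures are not described, so p-values measure the spread between these samples.

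Sympathetic neurons and adrenal chromaffin cells arise from the neural crest, and a small set of transcription factors switches on and maintains the genes that make, store and take up noradrenaline. In NB cells of the noradrenergic type, these factors are known to bind large enhancers of their own genes and of each other, an arrangement called a core regulatory circuit. NB cells can also take a mesenchymal form, in which this circuit is known to be weak or silent.

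All 8 factors had lower signals in SY5Y-TR1 than in SH-SY5Y cells, at very different sizes. TFAP2B and HAND1 were at or below the background level on every SY5Y-TR1 array, GATA3, GATA2 and PHOX2A were 4.24-fold, 3.90-fold and 3.06-fold lower, and ISL1, HAND2 and TBX2 were 1.61-fold, 1.54-fold and 1.37-fold lower. Signals are on the log2 scale of the robust multi-array average method (RMA), and genes were compared with limma and Benjamini-Hochberg adjustment over all 19775 genes. Calls required both an adjusted p under 0.05 and a change of 2-fold or more. By this rule 5 of the 8 factors were called lower, beside 5.99% of all genes. With the limit on the fold left out, 8 of 8 were lower and none higher, beside 24.3% of all genes lower and 28.5% higher. In each of the 8 factors every SY5Y-TR1 array read below every SH-SY5Y array, a pattern found in 27.2% of all genes. The median log2 fold change of the factors was -1.79, against 0.04 over all genes. RNA was measured in bulk, so fewer cells expressing a factor and less of its RNA in each cell cannot be told apart.

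The background level, 6.31 on the log2 scale, was set from 38 genes that are specific to unrelated tissues, as the 90th percentile of their means, because detection calls were not used here. All 8 factors lay above it on every SH-SY5Y array and 6 of them on every SY5Y-TR1 array. A fold is given as a lower bound, computed against this level, if no array of the dimmer line exceeded it. The median log2 signal ran from 5.57 to 5.59 over the 6 arrays, and the median SD between replicates was 0.07 in each line. Across probe sets, arrays correlated at a Pearson's r of 0.997 to 0.998 within a line and 0.959 to 0.960 between the lines. AXL, a receptor tyrosine kinase followed in these lines, was 13.6-fold higher in SY5Y-TR1. ALK lay below the background level on every array, averaging 4.96 for the resistant line against 5.88 for the parental line. The lines did not overlap for ALK (log2 fold change -0.92, limma adjusted p = 9.88e-05), but this size rests on signals below background. The paper reports ALK products on its western blots, so a signal under this level does not show that ALK is absent.

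**Figure D1:**
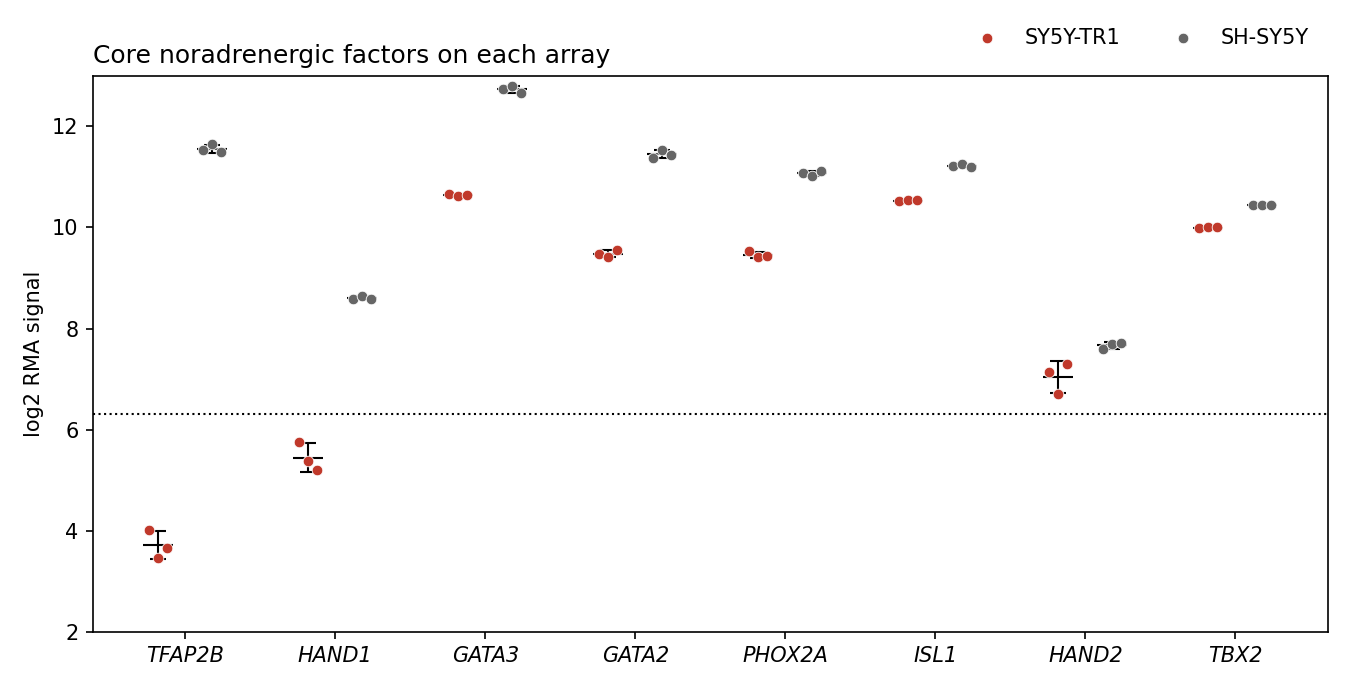
Log2 RMA signal (y axis) of the 8 factors (x axis) on each array, with the 3 SY5Y-TR1 arrays in red at the left and the 3 SH-SY5Y arrays in grey at the right of each gene. Bars are the mean and SD (n = 3 arrays) and the dotted line is the background level of 6.31. The lines are separate in every factor, by 7.47 log2 units in TFAP2B and by 0.29 in HAND2, and the SY5Y-TR1 arrays of TFAP2B and HAND1 sit below the dotted line.

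To place these genes, their promoter windows were taken from RefSeq on GRCh38.p14, each covering 250 bases before and 50 after an annotated transcript start. Of the 8 factors, 7 matched, with 13 windows in all, and TBX2 is named only. The 4 windows below belong to TFAP2B and HAND1, the factors that reached background in SY5Y-TR1, and to HAND2 and ISL1, which changed least among the matched ones. Capitals mark matches to motifs that stand for the factors' own families: CATCTG for HAND with an E protein, AGATAA for GATA factors, CTAATG for ISL, GCCNNNGGC for TFAP2, GGTGTGA for T-box factors and the paired homeodomain palindrome, TAAT and ATTA set 3 bases apart, for PHOX2 factors, each searched on both strands. No match overlapped one of another motif in these 4 windows.
TFAP2B, chr6:50818621-50818920, plus strand: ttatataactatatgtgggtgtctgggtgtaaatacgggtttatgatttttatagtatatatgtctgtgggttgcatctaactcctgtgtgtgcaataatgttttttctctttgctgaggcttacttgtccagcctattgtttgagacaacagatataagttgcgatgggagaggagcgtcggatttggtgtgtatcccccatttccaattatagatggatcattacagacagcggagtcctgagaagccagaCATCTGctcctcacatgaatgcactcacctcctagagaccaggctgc
HAND1, chr5:154478178-154478477, minus strand: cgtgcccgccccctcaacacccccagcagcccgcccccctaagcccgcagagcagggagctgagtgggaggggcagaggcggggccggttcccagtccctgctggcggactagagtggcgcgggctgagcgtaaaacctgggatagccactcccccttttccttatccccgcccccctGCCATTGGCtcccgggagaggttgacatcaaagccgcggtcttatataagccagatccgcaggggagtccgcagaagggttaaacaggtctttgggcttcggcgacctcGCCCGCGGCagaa
HAND2, chr4:173530180-173530479, minus strand: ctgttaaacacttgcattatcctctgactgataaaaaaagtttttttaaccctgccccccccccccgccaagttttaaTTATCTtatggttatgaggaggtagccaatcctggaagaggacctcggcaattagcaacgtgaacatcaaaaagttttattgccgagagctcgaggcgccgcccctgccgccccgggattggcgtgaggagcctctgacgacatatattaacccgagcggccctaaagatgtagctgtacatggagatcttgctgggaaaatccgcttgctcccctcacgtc
ISL1, chr5:51383198-51383497, plus strand: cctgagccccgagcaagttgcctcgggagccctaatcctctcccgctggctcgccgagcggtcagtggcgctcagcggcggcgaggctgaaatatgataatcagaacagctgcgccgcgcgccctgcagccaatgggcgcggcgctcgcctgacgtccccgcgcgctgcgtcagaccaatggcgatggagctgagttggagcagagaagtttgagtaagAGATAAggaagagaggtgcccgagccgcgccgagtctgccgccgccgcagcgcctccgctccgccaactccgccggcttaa

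The TFAP2B window holds 1 CATCTG, a sequence found in 14.7% of all 35116 windows of this length. The HAND2 and ISL1 windows each hold 1 AGATAA on one strand or the other, found in 10.3% of all windows. GCCNNNGGC occurs in both directions by symmetry and was found in 6 of the 13 windows, against 23.2% of all windows. The 6 belong to GATA2, GATA3 and HAND1, 3 of the 7 matched genes. GATA2 and GATA3 have more than 1 window each, and some GATA3 windows held no match, so windows are not independent. The ISL motif CTAATG, the T-box motif GGTGTGA and the homeodomain palindrome were in none of the 13 windows, against 6.49%, 3.45% and 0.365% of all windows. These are matches of letters in short windows, and no binding was measured.

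TFAP2B, an AP-2 family factor needed for the noradrenergic properties of sympathetic neurons in mice, was below the background level in SY5Y-TR1. Its log2 signal was 4.02, 3.47 and 3.65 on the SY5Y-TR1 arrays, against 11.52, 11.65 and 11.49 on the SH-SY5Y arrays. The SY5Y-TR1 arrays were all at background while the SH-SY5Y arrays were all bright, and the lines were far from overlapping. TFAP2B was at least 37.8-fold lower (log2 fold change -7.84 ± 0.13 SE, limma adjusted p = 3.35e-08), and the size beyond this bound rests on signals below background. The other bright probe set of TFAP2B had a mean of 3.12 ± 0.02 on the SY5Y-TR1 arrays and of 9.20 ± 0.04 on the SH-SY5Y arrays (SD, n = 3 each). The dimmest of its 3 probe sets lay below the background level in both lines and passed with a log2 fold change of -1.14.

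HAND1, a basic helix-loop-helix (bHLH) factor of heart, placenta and sympathetic ganglia, was read by 1 probe set. Its log2 signal was 5.76, 5.38 and 5.20 in SY5Y-TR1, against 8.59, 8.64 and 8.59 in SH-SY5Y. All SY5Y-TR1 arrays were below the background level, and HAND1 was at least 4.92-fold lower (log2 fold change -3.16 ± 0.13 SE, limma adjusted p = 1.35e-06). Since the folds of TFAP2B and HAND1 are both lower bounds, they do not fix which RNA fell more.

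HAND2, the related bHLH factor that maintains noradrenergic enzyme genes in sympathetic neurons, behaved differently. Its single probe set read 7.15, 6.70 and 7.30 in SY5Y-TR1, against 7.59, 7.70 and 7.72 in SH-SY5Y. The SY5Y-TR1 arrays spread more than those of SH-SY5Y, with replicate 2 the lowest, and the lines did not overlap. HAND2 was 1.54-fold lower (log2 fold change -0.62, 95% limits -0.97 to -0.27, limma adjusted p = 0.00975), which is under the 2-fold limit. Without SY5Y-TR1 replicate 2 the log2 fold change of HAND2 was -0.45. The adjusted p of HAND2 was 0.0569 with the methods' t-test over all genes and 0.0517 when values under the background level were raised to it. HAND2 lay above that level on every array, so the raised values were those of other genes and its log2 fold change stayed at -0.62. As measured, the log2 fold change of HAND1 exceeded that of HAND2 by 2.54 log2 units in size (standard error 0.25, exact two-sided permutation test, p = 0.1, the smallest that 3 against 3 arrays can give). HAND1 ended below background, and with values raised to that level its log2 fold change was -2.30, against -0.62 for HAND2, so 2.54 is not a measured difference in RNA.

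The zinc-finger factors GATA3 and GATA2, which are needed for sympathetic neuron development in mice, both fell. GATA3 read 10.67, 10.63 and 10.65 in SY5Y-TR1, against 12.74, 12.79 and 12.66 in SH-SY5Y. GATA2 read 9.47, 9.42 and 9.55 in SY5Y-TR1, against 11.37, 11.53 and 11.43 in SH-SY5Y. Both stayed well above background in SY5Y-TR1, with 23.6% of the SH-SY5Y signal left for GATA3 and 25.6% for GATA2. GATA3 was 4.24-fold lower (log2 fold change -2.08 ± 0.05 SE, limma adjusted p = 1.15e-07) and GATA2 3.90-fold lower (log2 fold change -1.96 ± 0.06 SE, limma adjusted p = 3.06e-07). Their changes differed by 0.12 log2 units (standard error 0.06), the GATA2 minus GATA3 differences of the lines did not overlap (exact two-sided permutation test, p = 0.1), and the 95% limits of the 2 log2 fold changes did. The 3 probe sets of GATA3 had log2 fold changes of -2.08, -2.32 and -2.37. Those of GATA2 had -1.96, -2.18 and -0.54, the last from the dimmest probe set, which lay below the background level on every SY5Y-TR1 array.

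PHOX2A, a paired-type homeodomain factor that activates the dopamine beta-hydroxylase gene, was read by 1 probe set. Its log2 signal was 9.53, 9.41 and 9.44 in SY5Y-TR1, against 11.08, 11.01 and 11.12 in SH-SY5Y. The arrays within a line lay close together and the lines were 1.49 log2 units apart. PHOX2A was 3.06-fold lower (log2 fold change -1.61 ± 0.05 SE, limma adjusted p = 3.84e-07), with 32.7% of the SH-SY5Y signal left.

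ISL1 and TBX2 kept most of their signal. ISL1, a LIM-homeodomain factor of sympathetic, sensory and motor neurons, read 10.52, 10.54 and 10.53 in SY5Y-TR1, against 11.22, 11.25 and 11.20 in SH-SY5Y. It was 1.61-fold lower, which leaves 61.9% of the SH-SY5Y signal (log2 fold change -0.69 ± 0.04 SE, limma adjusted p = 6.51e-06). TBX2, a T-box repressor linked to proliferation, read 9.98, 10.00 and 10.01 in SY5Y-TR1, against 10.45, 10.44 and 10.45 in SH-SY5Y. It was 1.37-fold lower, with 73.2% of the SH-SY5Y signal left (log2 fold change -0.45 ± 0.04 SE, limma adjusted p = 4.71e-05). For both genes the difference exceeded the spread between arrays and stayed under the 2-fold limit. The other 3 probe sets of TBX2 had log2 fold changes of -0.58, -0.18 and -0.01, and the last of these was below background in both lines and did not pass.

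By measured log2 fold change, the order after TFAP2B and HAND1, whose places are not fixed because both are bounds, was GATA3, GATA2, PHOX2A, ISL1, HAND2 and TBX2. The 95% limits of neighbours in this order overlapped for GATA3 and GATA2, for ISL1 and HAND2, and for HAND2 and TBX2. They did not overlap between GATA2, at -2.11 to -1.82, and PHOX2A, at -1.73 to -1.49, or between PHOX2A and ISL1, at -0.78 to -0.60. The limits of ISL1 also lay apart from those of TBX2, at -0.54 to -0.36. These limits hold for the brightest probe sets only. With the mean of all probe sets the log2 fold change was -1.56 for GATA2 and -1.61 for PHOX2A, the other order. In the fit of single probe sets, 1 other TBX2 probe set had limits of -0.70 to -0.46, which overlapped those of ISL1, at -0.81 to -0.58. Over all 17 probe sets of the factors 10 were called lower and 16 had an adjusted p under 0.05 with a negative log2 fold change. Several of these probe sets read the same gene, so they do not add to the count of factors. Shares over all probe sets were not computed, and over all genes they were 5.99% and 24.3%.

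**Figure D2:**
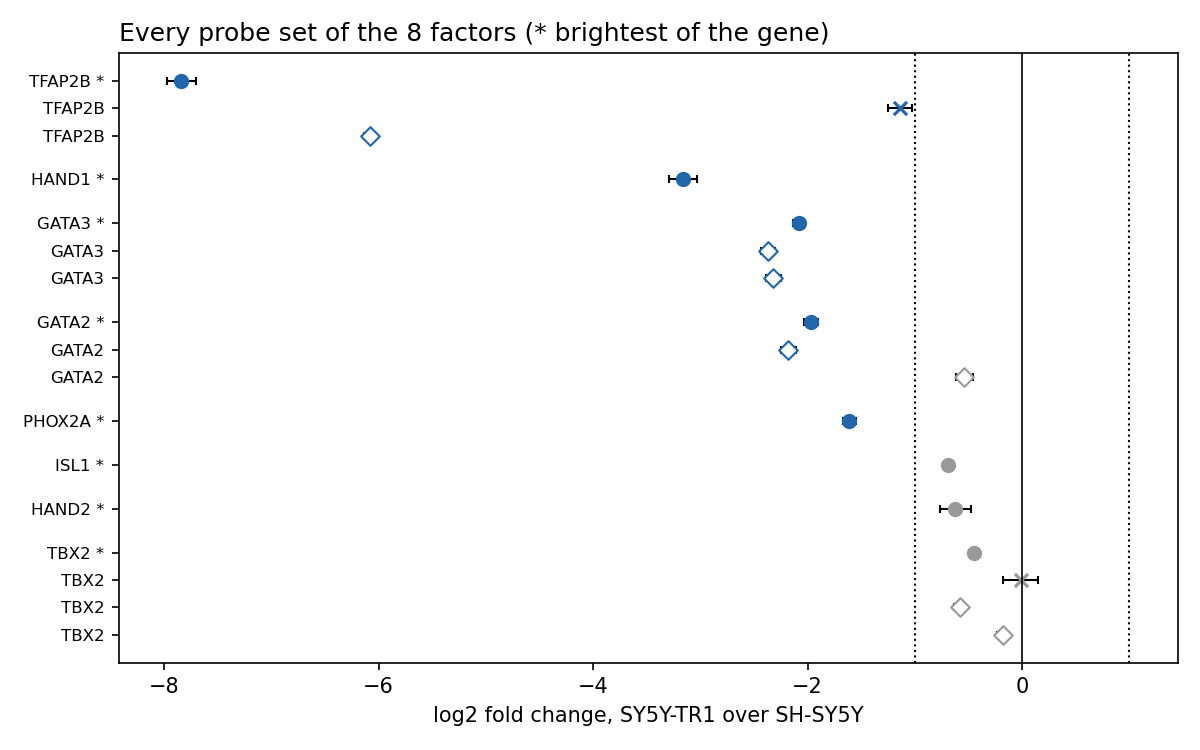
Log2 fold change (x axis, SY5Y-TR1 over SH-SY5Y) of each of the 17 probe sets of the 8 factors (rows), with a bar for the standard error (3 arrays per line). Circles are the brightest probe set of a gene, open diamonds the others and crosses probe sets below the background level on every array of both lines. Blue marks a call as lower, grey no call, and dotted lines mark 2-fold. The 3 GATA3 probe sets lie together near -2, whereas those of TFAP2B run from -7.84 to -1.14.

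Several of these genes have an antisense partner, a noncoding RNA gene named for the opposite strand of the same locus. Probe sets of 4 such genes were read, and they were chosen after their values had been seen. HAND2-AS1 read 8.73, 8.66 and 8.71 in SY5Y-TR1, against 10.69, 10.76 and 10.83 in SH-SY5Y. It was called lower (log2 fold change -2.06 ± 0.05 SE, limma adjusted p = 1.27e-07), and its other probe set gave -2.23. The HAND2-AS1 fall was larger than that of HAND2 by 1.44 log2 units (standard error 0.16, exact two-sided permutation test, p = 0.1). HAND2 averaged 7.05 in SY5Y-TR1 and 7.67 in SH-SY5Y, nearer the background level than HAND2-AS1, at 8.70 and 10.76. The 1.44 is therefore a difference in signal and not a measured difference in RNA. Replicate 2 of SY5Y-TR1, which was low for HAND2, was not apart from the other arrays for HAND2-AS1.

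GATA3-AS1 read 5.93, 6.02 and 6.02 in SY5Y-TR1, against 7.39, 7.25 and 7.31 in SH-SY5Y. It was below the background level on all SY5Y-TR1 arrays and at least 2.01-fold lower (log2 fold change -1.33, limma adjusted p = 1.10e-06), and its other probe set was also called lower. GATA2-AS1 and TBX2-AS1 stayed under the 2-fold limit, with log2 fold changes of -0.39 (limma adjusted p = 0.000545) and -0.19 (limma adjusted p = 0.00560). Both changed less than the factor of the same locus, by 1.57 log2 units for GATA2-AS1 against GATA2 and by 0.26 for TBX2-AS1 against TBX2 (exact two-sided permutation test, p = 0.1 for each). Both were also dimmer than that factor, so these are differences in signal too. In all, 6 such pairs were compared, including HAND1 with HAND2 and GATA2 with GATA3, and each p adjusted over the pairs was 0.1. The sources used here do not say whether these probe sets read only the strand they are named for.

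**Figure D3:**
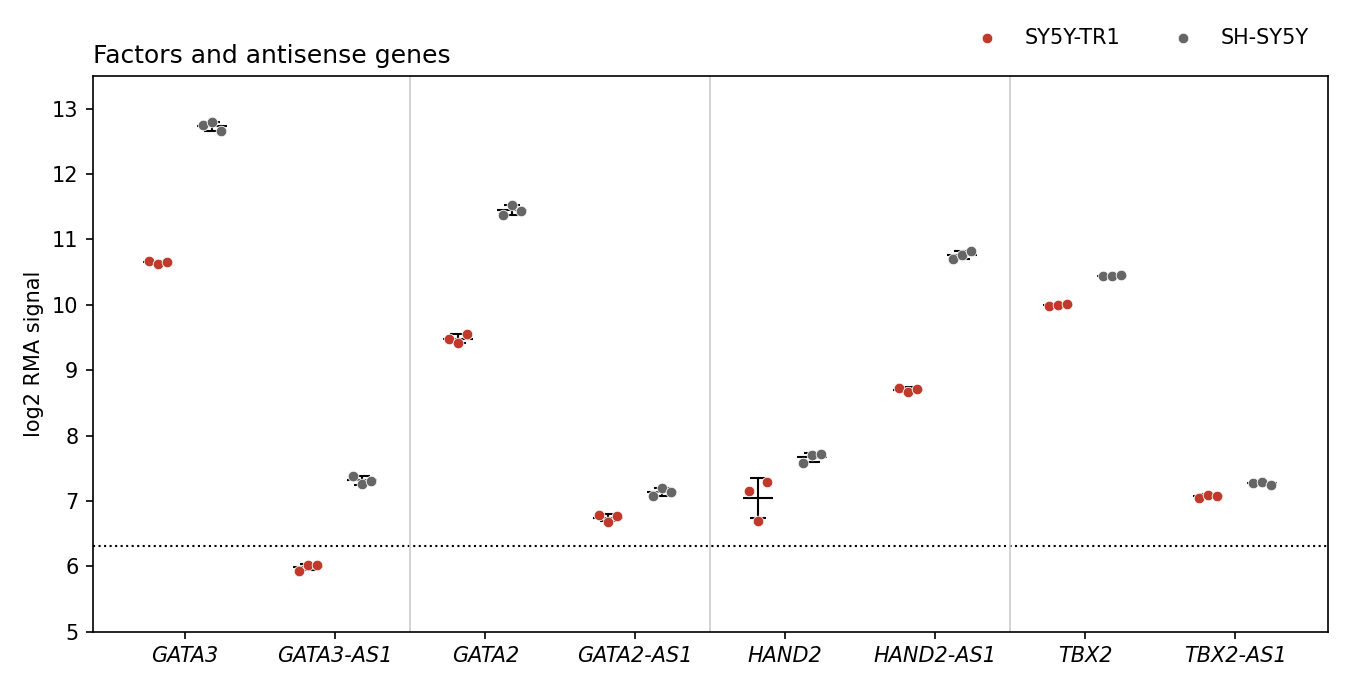
Log2 RMA signal (y axis) of GATA3, GATA2, HAND2 and TBX2, each beside its antisense gene (x axis), on each array, with SY5Y-TR1 in red at the left and SH-SY5Y in grey at the right of each gene. Bars are the mean and SD (n = 3 arrays) and the dotted line is the background level of 6.31. The lines lie about 2 log2 units apart in HAND2-AS1 (log2 fold change -2.06) and close together in HAND2 (-0.62).

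The genes whose profiles over the 6 arrays were most like those of the called factors were found by Euclidean distance, with each gene centred on its own mean, among 11508 genes above background in at least 1 line. With 2 lines this likeness is mainly likeness in the difference between them. TFAP2B was closest to C7, which encodes a complement component, to DLK1, a gene of the Notch ligand family, and to RET, the receptor for GDNF-family ligands, at distances of 0.67, 0.70 and 0.74. HAND1 was closest to the cell cycle inhibitor gene CDKN1C, to ADCYAP1R1, which encodes a receptor for the neuropeptide PACAP, and to the serotonin receptor gene HTR2B (0.13, 0.20 and 0.26). In SY5Y-TR1 the means of TFAP2B, HAND1 and these neighbours of both were below the background level. Which genes are nearest to TFAP2B and HAND1 is therefore not fixed. GATA3 was closest to FAM83D, MYC and CDCA3 (0.10 for each), with MYC at a log2 fold change of -2.13. GATA2 was closest to NREP, CENPH and ZNF681 (0.12 for each), and PHOX2A to SSBP2, CEP55 and DHRS13 (0.05, 0.07 and 0.08).

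Further transcription factors of the noradrenergic NB state moved the same way or did not pass. Of 12 measured, 6 were called lower and none higher, beside 5.99% of all genes called lower and 5.36% called higher. The median log2 fold change was -0.98. The zinc-finger gene ZNF536 had a mean of 3.63 ± 0.09 on the SY5Y-TR1 arrays and of 9.65 ± 0.12 on the SH-SY5Y arrays (SD, n = 3 each), at least 10.1-fold lower. The homeobox gene SIX3 was 12.2-fold lower and SOX11, an HMG-box factor of immature neurons, 7.22-fold lower. SIX3 averaged 6.51 in SY5Y-TR1, near the background level. MYCN, named after its values were seen, was near the background level in both lines, at 6.42 in SY5Y-TR1 and 6.23 in SH-SY5Y. On 3 SY5Y-TR1 arrays and 1 SH-SY5Y array it was above that level. MYCN did not pass (limma adjusted p = 0.206), and 9 of its 10 probe sets were not called.

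Most of the genes that define the noradrenergic phenotype fell. Of 17 measured, 13 were called lower and none higher, beside 5.99% of all genes called lower and 5.36% called higher. The median log2 fold change was -3.69. Among the 13, CHRNB4, named after its values were seen, lay below the background level on all arrays of both lines. With values raised to that level 12 were called lower. DLK1 was at least 49.7-fold lower (called through 1 of its 2 probe sets), DDC, which encodes DOPA decarboxylase, at least 31.9-fold lower and RET at least 23.9-fold lower. Among genes named for their role, after their values were seen, DBH, which encodes the enzyme that makes noradrenaline and is a known target of PHOX2A, read 6.19, 6.08 and 6.20 in SY5Y-TR1, against 9.20, 9.25 and 9.33 in SH-SY5Y. The SY5Y-TR1 arrays of DBH were at background and those of SH-SY5Y were not, so DBH was at least 7.70-fold lower, with 1 of its 2 probe sets called. The noradrenaline transporter gene SLC6A2 was at least 18.9-fold lower, with 7 of its 8 probe sets called. The secretory granule genes CHGA and CHGB were lower, CHGA with a log2 fold change of -3.69 and CHGB at least 14.1-fold. Only 1 of the 3 SY5Y-TR1 arrays of CHGA exceeded the background level, so the size for CHGA rests partly on signals below background. The nicotinic receptor subunit gene CHRNA3 was at least 35.0-fold lower, and NPY, which encodes a peptide released with noradrenaline, had a log2 fold change of -5.84. GCH1, needed for the cofactor of tyrosine hydroxylase, kept a mean log2 signal of 8.53 in SY5Y-TR1, against 10.98 in SH-SY5Y. TH, which encodes the first enzyme of the pathway and was read by 1 probe set, lay below the background level on all arrays of both lines. So did the vesicular transporter gene SLC18A2. A signal under this level does not show that the RNA of these markers of the noradrenergic type is absent. MAB21L2, a gene of neural crest and eye development, was the exception in direction, with a log2 fold change of 0.36 (limma adjusted p = 0.000373), under the 2-fold limit.

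**Figure D4:**
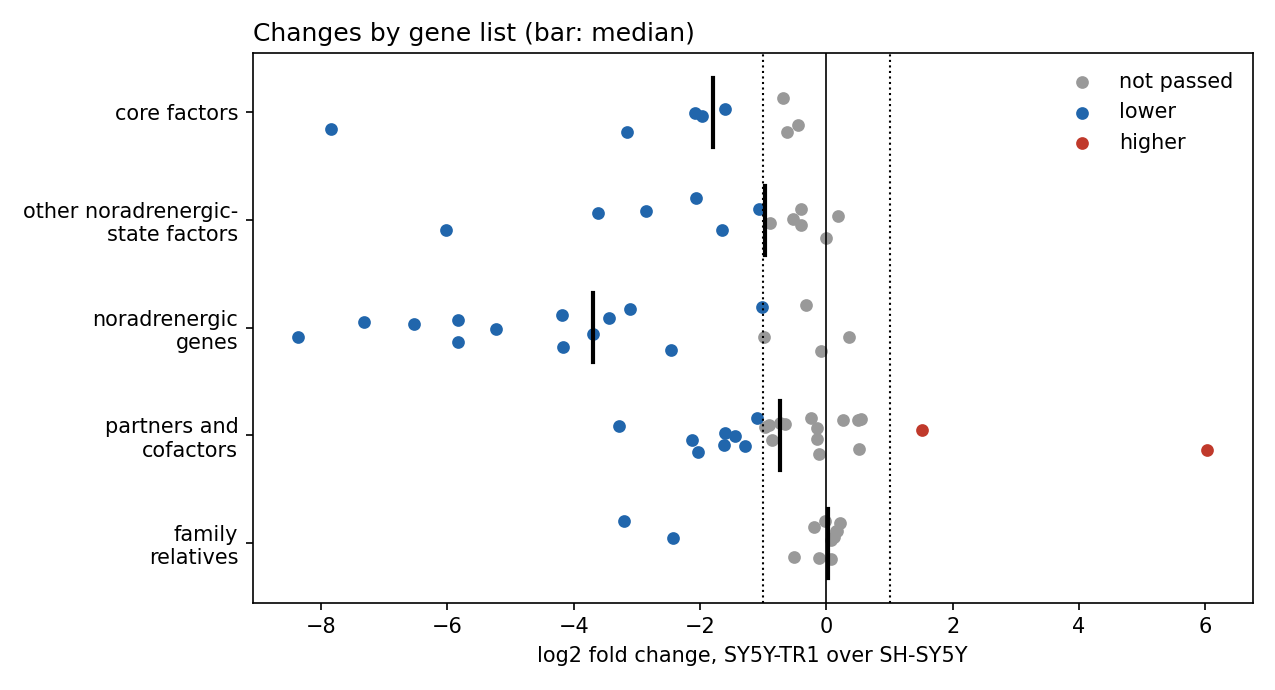
Log2 fold change (x axis, SY5Y-TR1 over SH-SY5Y, n = 3 arrays in each line) of each measured gene of 5 lists (rows): the 8 core factors, 12 other factors of the noradrenergic state, 17 noradrenergic genes, 23 binding partners and cofactors, and 12 relatives of the same families. Blue and red points were called lower and higher, grey points did not pass, black bars are medians and 2-fold is dotted. Medians were -1.79, -0.98, -3.69, -0.73 and 0.02, and the red point farthest to the right is CITED2 at 6.03.

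Of 23 measured binding partners and cofactors of the core factors, 8 were called lower, 2 higher and 13 did not pass, beside 5.99% of all genes called lower and 5.36% called higher. CITED2, which encodes a coactivator of AP-2 factors, rose in SY5Y-TR1 cells. Its log2 signal was 11.39, 11.45 and 11.35 in SY5Y-TR1, against 5.41, 5.38 and 5.32 in SH-SY5Y. All SH-SY5Y arrays of CITED2 were below the background level and all SY5Y-TR1 arrays were bright, at least 33.9-fold higher (log2 fold change 6.03, limma adjusted p = 2.85e-09), and 2 of its 3 probe sets were called higher. KCTD15, an inhibitor of AP-2 activity, was 4.36-fold lower, with 3 of its 5 probe sets called.

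Partners of the LIM-domain and bHLH proteins moved in both directions. LMO1, a LIM-only protein gene linked to NB risk, was 4.11-fold lower, and its relative LMO3 at least 2.27-fold lower, called through 1 of 4 probe sets. LMO1 averaged 6.43 in SY5Y-TR1, near the background level, with 2 of 3 arrays above that level. The other LIM-only genes, named after their values were seen, were higher under the 2-fold limit. LMO4 had a log2 fold change of 0.51 (limma adjusted p = 6.80e-05), and LMO2, below background on every SH-SY5Y array, was at least 1.01-fold higher (log2 fold change 0.52, limma adjusted p = 0.000623). LDB2, which encodes an adaptor that LIM proteins bind, was 2.85-fold higher through 1 of 2 probe sets. The E proteins, the dimer partners of HAND1 and HAND2, are named for that role after their values were seen. TCF3 had a log2 fold change of -1.45 through 1 of 14 probe sets, whereas TCF12 (-0.92) and TCF4 (-0.65) stayed under the 2-fold limit, both at a limma-adjusted p under 0.05.

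Most relatives of the factors from the same families were not above background. Of 12 measured, 2 were called lower and none higher, beside 5.99% of all genes called lower and 5.36% called higher. The averages of 9 of them lay at or below the background level in both lines. The other AP-2 genes TFAP2A, TFAP2C, TFAP2D and TFAP2E, named for their family after their values were seen, were among these 9. TBX3, the closest relative of TBX2, was 9.23-fold lower with 3 of 7 probe sets called, at 7.53, 7.45 and 7.30 in SY5Y-TR1, against 10.63, 10.66 and 10.61 in SH-SY5Y. Its arrays were far apart between the lines, whereas those of TBX2 differed by 0.45 log2 units. GATA4, a GATA factor of heart and gut, was at least 3.39-fold lower, with 1 of 5 probe sets called.

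Markers of other cell types were read in the same samples. All 6 measured Schwann cell markers, 8 blood cell markers and 6 endothelial markers averaged at or below the background level in both lines, and none was called. The brightest of them were SOX10 and ERBB3, CD79A and ITGAM, and PECAM1 and CLDN5, with log2 fold changes of 0.07 for SOX10 and 0.27 for CLDN5. Blood cells also express GATA2 and GATA3, and their defining markers were thus at background here. Of 6 measured sensory neuron factors, which ISL1 accompanies in sensory ganglia, none was called, and only RUNX3 averaged above background, while PRDM12 did not. PNMT, the enzyme gene of adrenaline-making cells, and the cholinergic transporter gene SLC18A3 were not called either, and none of the 4 cholinergic and adrenaline genes was.

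Mesenchymal markers moved in both directions, more of them higher. Of 14 measured, 8 were called higher and 3 lower, beside 5.36% of all genes called higher and 5.99% called lower. At a limma adjusted p under 0.05 and any fold, 9 were higher and 5 lower, beside 28.5% of all genes higher and 24.3% lower. The summed signal of the list ran from 62933 to 68316 in SY5Y-TR1, against 30593 to 31280 in SH-SY5Y, in linear RMA units. The brightest genes add most to this sum, so it does not show that the whole list moved. PRRX1, a homeobox gene of mesenchymal tissue, was below background on every SH-SY5Y array and at least 114-fold higher. COL1A1, a fibrillar collagen gene, was 13.2-fold higher, with 3 of 5 probe sets called, and TWIST2, a bHLH repressor, 4.19-fold higher through 1 of 2 probe sets. DCN and LUM, which encode matrix proteoglycans, and PDGFRA, a growth factor receptor gene, ran against the list. DCN was at least 4.99-fold lower, with 4 of 7 probe sets called, LUM 4.04-fold lower through 1 of 2 probe sets and PDGFRA 4.44-fold lower through 1 of 4. The part of the mesenchymal markers in the change of the factors was not tested.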

How the data were processed

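For each of the 2 lines, 3 arrays were analysed. The authors ran RMA in Expression Console (no version is given in the sources used here), which subtracts background, gives all arrays 1 distribution of signals and combines the probes of a set, and the deposited values are log2 signals. Scanner files were not used here, so only later steps could be varied. Probe sets were named through the platform annotation, with symbols updated through RefSeq (GRCh38.p14), and 62 control probe sets were excluded. Among the other 54613, 41091 had 1 gene symbol, 1801 several and 11721 none. Lines were compared with limma 3.58.1 in R 4.3.3 without a replicate block, since the methods name GenePattern with no settings, and calls used the limits of the heatmap legend. The number of arrays limits the precision. In 5 simulations of 19775 genes with 200 changed, at least 98% of genes changed by 1.5 and at least 99% of those changed by 3 on the log2 scale were recovered. Noise was drawn with the spread of each gene between these arrays, so this checks the running of the fit only. Changes under the 2-fold limit and a floor at background were not simulated. The factors, lists and tests were chosen with earlier results of these data known. Beside the 8 factors, the 3 largest called decreases and increases of each list, or its 2 brightest genes, were named, with the 3 genes most like each called factor, AXL and ALK. Exact permutation tests used SciPy 1.17.1. Alternatives were other probe set choices, centring on 21 housekeeping genes, quantile normalization applied again, a filter and a floor at the background level, a replicate block, another variance model, the methods' t-test, other thresholds and each array left out.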

Additional observations from a re-analysis of the deposited data

How the results depend on the processing

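TFAP2B, HAND1, GATA3, GATA2 and PHOX2A were called lower under all 16 alternatives to the fit and the threshold that keep the 2-fold limit, and no factor changed direction. The replicate block left 5 factors called and 8 lower at any fold, and it changed no count of calls in the lists by over 1.5 times. The correlations of same-numbered deviations were -0.02, -0.03 and 0.01, so no shared effect of replicate number was visible in the signals. They cannot show whether same-numbered cultures were handled together. Left-out arrays moved HAND2 most among the factors under the 2-fold limit, between -0.75 and -0.45. At an adjusted p under 0.05 with no fold limit, HAND2 (-0.62), TBX2 (-0.45) and ISL1 (-0.69) joined the called factors, making 8. Under the same limit 4813 of the 19775 genes were lower (24.3%) and 5634 higher (28.5%). Of the 12 other noradrenergic-state factors 10 were lower and none higher, and of the 17 noradrenergic genes 14 were lower and 1 higher. Of the 23 partners 15 were lower and 5 higher, and of the 12 family relatives 3 were lower and 2 higher. Of the 14 mesenchymal markers 5 were lower and 9 higher. Of the 8 blood markers 1 was higher and of the 6 endothelial markers 3 were higher, with none lower. Of the 4 cholinergic and adrenaline genes 2 were lower and none higher. The partners called higher were 1 with the mean of all probe sets and 1 with probe sets without shared-sequence names, where LDB2 was lost, and the relatives called lower were 1 with the mean of all probe sets, where GATA4 was lost (-0.55). DLK1 and LMO3 were not called with probe sets without shared-sequence names (-0.18 and -0.47), nor were LUM (-0.73) and LDB2 (0.06). PDGFRA (-0.67) and LDB2 (0.79) were not called with the mean of all probe sets, nor HTR2B (-0.90) with values raised to background. The PECAM1 log2 fold change and the PRDM12 log2 fold change, both near 0, turned sign, for PECAM1 without SH-SY5Y replicate 3 (-0.0031, with a range of -0.0031 to 0.2092 over the arrays left out) and for PRDM12 when centred on housekeeping genes (-0.0069). The methods' t-test called 1185 genes lower and 1060 higher both at its unadjusted threshold and after Benjamini-Hochberg. Folds of TFAP2B and HAND1 are limited by the background level and are bounds.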
